A study of Mus musculus with 18 samples.

Results

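Liver transcript levels of 10 genes for fatty acid desaturases and elongases were compared between mice that differ in sex and in residue 446 of GKRP, the glucokinase regulatory protein encoded by Gckr. The genes were chosen by symbol and were Scd1, Scd2, Fads1, Fads2, Fads6, Elovl1, Elovl2, Elovl3, Elovl5 and Elovl6. They are 10 of the 52230 genes to which transcripts could be joined and 10 of the 10938 genes tested, so all 10 passed the filter of at least 10 counts in at least 4 libraries. Scd2 passed it only narrowly, with 0 to 16.2 normalized counts.

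RNA was sequenced from whole liver of 18 mice, with 1 library per mouse. The mice came from a single line on a B6N background in which the codon change is carried in the germline, so every cell type of the liver holds it, and all were fed standard chow. PP mice carried the wild-type allele (Gckr-446P) and LL mice the knock-in allele (Gckr-446L). The groups were male PP (n = 4, 9 to 14 weeks old), male LL (n = 4, 13 to 14 weeks), female PP (n = 5, 9 to 14 weeks) and female LL (n = 5, 11 to 14 weeks). These ages are those of the single samples, whereas the text for the whole series gives 14 weeks for all mice.

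Fatty acid elongases catalyse the rate-limiting condensation by which an acyl-CoA gains carbons from malonyl-CoA in the endoplasmic reticulum, and desaturases insert double bonds with electrons passed on by cytochrome b5. Scd1 converts saturated fatty acids to palmitoleate and oleate and is among the most abundant lipogenic transcripts of mouse liver. Fads2 and Fads1, together with Elovl5 and Elovl2, convert the dietary essential fatty acids to arachidonate, eicosapentaenoate and docosahexaenoate. Several of these genes are known targets of SREBP-1c, LXR and PPARα in hepatocytes.

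Total estimated counts ranged from 3794671 to 6613905 per library. The hepatocyte markers Alb, Apoa1, Ttr, Cyp2e1 and Serpina1a summed to between 439000 and 844000 normalized counts in every mouse. The 5 adipocyte markers, which matter here because fat also expresses Scd1, Elovl3, Elovl5 and Elovl6, summed to at most 1.60 normalized counts, and the 4 cholangiocyte markers to at most 10.8. Genes named Mup with a number, which encode the major urinary proteins, took 21.5 to 30% of the counts in PP males, 11.81 to 19.26% in LL males and 2.00 to 6.91% in female mice. In bulk tissue, fewer cells of a type and less RNA per cell cannot be told apart.

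Per unit of transcript length, Scd1 was the leading gene of the family in each group. In PP males the TPM was 228 ± 52.6 for Scd1, 114 ± 52.4 for Fads2, 45.0 ± 7.51 for Fads1, 41.9 ± 9.35 for Elovl2, 27.9 ± 11.1 for Elovl5 and 18.2 ± 4.16 for Elovl3 (SD, n = 4). Elovl1 followed at 14.2 ± 5.16, Fads6 at 6.46 ± 1.83, Elovl6 at 3.63 ± 0.445 and Scd2 at 0.126 ± 0.0978 TPM (SD, n = 4). In that order the ranges of neighbouring genes overlapped from Fads1 through Elovl2, Elovl5 and Elovl3 to Elovl1, and also between Scd1 and Fads2, while Fads2 and Fads1, Elovl1 and Fads6, Fads6 and Elovl6, and Elovl6 and Scd2 did not overlap. Scd1 held 45.9% ± 7.34 of the summed TPM of the 10 genes in PP males, 62.5% ± 2.62 in LL males (SD of 4 mice each), 58.0% ± 6.83 in PP females and 49.3% ± 14.4 in LL females (SD of 5 mice each). In females Elovl3 moved down the order, to 1.06 ± 0.739 TPM in PP and 1.74 ± 0.662 TPM in LL mice (SD of 5 mice each).

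**Figure D1:**
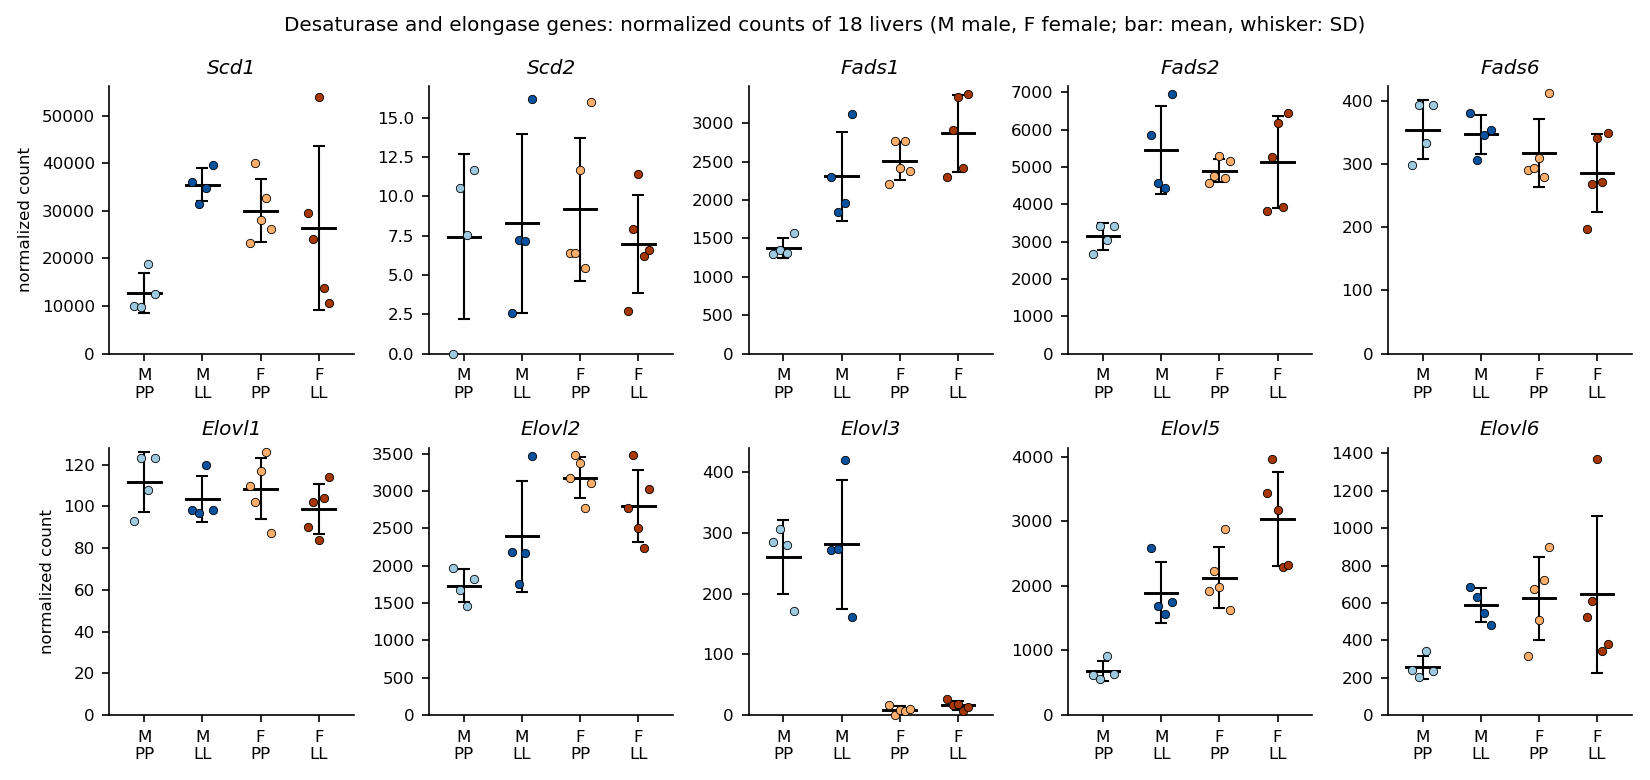
Normalized counts of the 10 genes in each of 18 livers, on a linear axis from 0 in each panel, with 1 point per mouse, the mean as a bar and the SD as a whisker. PP males (M PP) sat below LL males (M LL) without overlap for Scd1, Fads1, Fads2, Elovl5 and Elovl6, and Elovl3 was at most 26.4 in females (F) against at least 161 in males.

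The first question was whether the LL genotype changes these transcripts in males. Scd1, Fads1, Fads2 and Elovl5 were higher in LL males than in PP males, by 1.67-fold to 2.78-fold, and none of the 10 genes was called lower. A gene is called where the DESeq2 adjusted P is below 0.05 and the fold change is at least 1.3 or at most 0.7. Of all genes tested 0.21% were called higher, 0.0731% lower and 0.283% in either direction, against 4 of these 10. DESeq2 gave an adjusted P in this contrast to only 3301 of the 10938 genes, of which 31 were called. The groups did not overlap for 5 of the 10, which were the 4 called genes and Elovl6, against 4.07% of all genes tested. The median log2 change (log2 of the fold change) of the 10 genes was 0.60, and that of all genes tested was 0.00.

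Among the desaturases, Scd1 (ENSMUSG00000037071, GRCm39 chr19:44382894-44399154, minus strand) had 9989, 9810, 18859 and 12488 normalized counts in the PP males and 35996, 31423, 34889 and 39747 in the LL males. The highest PP mouse lay well below the lowest LL mouse. The log2 change was 1.47 ± 0.35 (SE, DESeq2 adjusted P = 0.00446). Scd1 was no longer called by edgeR (adjusted P = 0.26) or with age as a term (0.142), nor without male PP 1 (0.251), 2 (0.341) or 4 (0.206) or male LL 1 (0.203), 2 (0.122) or 4 (0.159), where its log2 change was from 1.37 to 1.53.

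Fads1 (ENSMUSG00000010663, chr19:10160167-10174241, plus strand), the desaturase that makes arachidonate and eicosapentaenoate, had 1291, 1350, 1307 and 1572 normalized counts in PP males and 2300, 1846, 1959 and 3117 in LL males. The 4 PP mice were close together, and all LL mice lay above them. The log2 change was 0.74 ± 0.17 (SE, DESeq2 adjusted P = 0.00275). The call was lost with edgeR (adjusted P = 0.184), and it held in the other 30 of 31 alternatives.

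Fads2 (ENSMUSG00000024665, chr19:10038130-10079203, minus strand), which encodes the first desaturase of the same route, had 2674, 3416, 3048 and 3415 normalized counts in PP males and 5840, 4564, 4444 and 6952 in LL males. The groups again did not overlap. The log2 change was 0.80 ± 0.18 (SE, DESeq2 adjusted P = 0.00266), and the call was lost with edgeR (adjusted P = 0.184), with an offset for transcript length (0.28), on log2(TPM + 1) (0.111) and without male PP 1 (0.0507).

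The other desaturases overlapped between the genotypes. Fads6, a desaturase family member whose substrate is not established, had 299 to 394 normalized counts in PP males and 307 to 381 in LL males, with a log2 change of -0.04 ± 0.17 (SE, 95% interval from -0.38 to 0.31, DESeq2 adjusted P = 0.987). Scd2, the isoform best known from brain and neonatal tissues, had 0, 10.5, 7.52 and 11.7 normalized counts in PP males and 2.59, 7.19, 7.14 and 16.2 in LL males, too few for a precise fold change (0.10 ± 0.60 on the log2 scale). DESeq2 left its adjusted P empty.

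Elovl5 (ENSMUSG00000032349, chr9:77818113-77891802, plus strand), which elongates polyunsaturated fatty acids between the steps of Fads2 and Fads1, had the lowest adjusted P of the family. It had 619, 564, 918 and 628 normalized counts in PP males and 2589, 1682, 1564 and 1755 in LL males. Every LL mouse was above every PP mouse. The log2 change was 1.47 ± 0.22 (SE, DESeq2 adjusted P = 9.07e-08), and Elovl5 was called in all 31 alternatives, edgeR included (adjusted P = 0.0382).

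Elovl2, which acts after Elovl5 on longer polyunsaturated chains, had 1974, 1669, 1464 and 1827 normalized counts in PP males and 2183, 1759, 2167 and 3472 in LL males. The groups overlapped, with male LL 4 the highest. The log2 change was 0.47 ± 0.18 (SE, DESeq2 adjusted P = 0.256), and Elovl2 passed the threshold only on log2(TPM + 1) (0.90, limma adjusted P = 0.0382), a scale on which the median gene was 0.21 higher in LL males.

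Elovl6 (ENSMUSG00000041220, chr3:129326004-129432144, plus strand), which extends palmitate to stearate and so feeds Scd1, had 240, 201, 345 and 236 normalized counts in PP males and 687, 633, 548 and 484 in LL males. The groups did not overlap, but the gene was not called, with a log2 change of 1.20 ± 0.35 (SE, DESeq2 adjusted P = 0.056). Males fitted alone gave an adjusted P of 6.18e-07, and TMM factors 0.0431. The adjusted P was also below 0.05, from 0.00351 to 0.0497, without male PP 3, male LL 3, female PP 1, 3 or 5, or any 1 of the 5 LL females, while edgeR gave 0.379 and the fit without male PP 2 gave 0.467.

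The remaining elongases overlapped between the genotypes. Elovl1, an elongase of very long saturated chains, had 92.8 to 123 normalized counts in PP males and 97.1 to 120 in LL males (log2 change -0.11 ± 0.16, SE). Elovl3, which elongates saturated and monounsaturated chains and is known for its male-biased and circadian expression in mouse liver, had 286, 306, 281 and 171 normalized counts in PP males and 272, 273, 420 and 161 in LL males. Its log2 change was 0.11 ± 0.35 (SE, 95% interval from -0.58 to 0.80, DESeq2 adjusted P = 0.978). Among clock genes none of 10 tested was called by DESeq2 or edgeR in this contrast, with 0 at an unadjusted P below 0.05 in either test. Between the sexes 0 were called by either test, with 2 in PP and 3 in LL mice at an unadjusted P below 0.05 by DESeq2.

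Several library properties moved with genotype in males. Fragment length, estimated as the difference between transcript and effective length, was 518 ± 95.7 bases in PP males and 407 ± 156 bases in LL males, and the share of mitochondrial counts was 9.48% ± 1.00 and 12.6% ± 3.72 (SD of 4 mice each). With fragment length as a term the count of called genes was again 4, and with age as a term it was 3. The 4 Kupffer cell markers summed to 398 to 985 normalized counts in PP males and 348 to 645 in LL males, and the 4 stellate cell markers to 256 to 545 and 458 to 753. Their part in the results was not tested.

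Because Scd1, Fads2 and Fads1 were called higher together in LL males, the 250 bases before the start of the most abundant transcript of each were read from GRCm39. Capitals mark matches to any of 4 motifs searched on both strands. The motifs were CCAAT (the CCAAT box bound by NF-Y), TCACNCCAC (a core of the sterol regulatory element), CACGTG (an E-box) and TTCNNNGAA (the STAT palindrome). The windows were chr19:44396341-44396590 (minus strand) for Scd1, chr19:10079204-10079453 (minus strand) for Fads2 and chr19:10159917-10160166 (plus strand) for Fads1, each written 5′ to 3′ along its gene:
Scd1: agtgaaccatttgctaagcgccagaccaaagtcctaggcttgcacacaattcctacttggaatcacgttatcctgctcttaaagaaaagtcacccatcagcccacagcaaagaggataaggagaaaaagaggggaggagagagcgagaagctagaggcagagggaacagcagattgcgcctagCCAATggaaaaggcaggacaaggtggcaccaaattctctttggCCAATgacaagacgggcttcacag
Fads2: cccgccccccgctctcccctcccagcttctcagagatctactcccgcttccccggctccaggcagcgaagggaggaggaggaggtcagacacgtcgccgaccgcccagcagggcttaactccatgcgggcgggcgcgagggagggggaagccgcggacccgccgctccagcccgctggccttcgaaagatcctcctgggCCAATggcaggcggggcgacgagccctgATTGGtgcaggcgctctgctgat
Fads1: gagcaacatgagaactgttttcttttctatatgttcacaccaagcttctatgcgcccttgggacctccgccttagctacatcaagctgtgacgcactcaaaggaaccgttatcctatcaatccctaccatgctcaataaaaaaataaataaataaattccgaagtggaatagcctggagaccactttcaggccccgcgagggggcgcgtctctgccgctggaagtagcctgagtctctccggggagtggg
CCAAT matches were present in the windows of Scd1 (63 and 20 bases before the start) and Fads2 (47 and 19 bases), and absent from that of Fads1. Among the windows of 21757 protein-coding genes, 36.5% held a CCAAT match. The windows of Scd1, Fads2 and Fads1 held no match to the other motifs, which 1.12% (TCACNCCAC), 6.26% (CACGTG) and 7.70% (TTCNNNGAA) of the protein-coding windows held. A match is a description of letters and not of binding.

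In females the same comparison gave no called gene. Of the 10 genes, 0 were called by DESeq2 and 0 by edgeR, with 2 at an unadjusted P below 0.05 by DESeq2, and the groups overlapped for each of the 10. Of all genes tested, 0.658% were called and 2.66% did not overlap. The median log2 change of the 10 genes was -0.05.

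Scd1 spread widely among LL females, with 29595, 24134, 54012, 13811 and 10534 normalized counts, against 23256, 40040, 28085, 32823 and 26111 in PP females. Female LL 3 was the highest and female LL 4 and 5 the lowest of the 10 females. The log2 change was -0.19 ± 0.31 (SE, 95% interval from -0.79 to 0.42). Elovl6 was likewise highest in female LL 3 and lowest in female LL 4 and 5 within that group, with 526, 612, 1373, 341 and 378 normalized counts in LL females and 314, 677, 511, 724 and 900 in PP females, and a log2 change of 0.05 ± 0.31 (SE, 95% interval from -0.57 to 0.66).

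The genes closest to the threshold were Elovl5 and Elovl3. Elovl5 had 3444, 3973, 3179, 2289 and 2330 normalized counts in LL females and 1928, 2232, 1984, 2880 and 1623 in PP females, where female PP 4 was above 2 of the LL mice. Its log2 change was 0.52 ± 0.20 (SE, DESeq2 adjusted P = 0.168), and without female PP 4 it was called at 0.65 (0.0313). Elovl3 had 26.4, 16.8, 18.7, 6.17 and 13.1 normalized counts in LL females and 16, 0, 8.39, 6.34 and 10.4 in PP females, with a log2 change of 0.98 ± 0.40 (SE, DESeq2 adjusted P = 0.215) that rests on few counts.

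The polyunsaturated desaturases overlapped between the female genotypes. Fads1 had 2203 to 2765 normalized counts in PP females and 2300 to 3377 in LL females, with a log2 change of 0.20 ± 0.15 (SE, 95% interval from -0.09 to 0.48). Fads2 had 4576 to 5300 and 3817 to 6434, with 0.07 ± 0.16 (SE, 95% interval from -0.24 to 0.38). Fads6, Elovl1, Elovl2 and Scd2 had log2 changes from -0.40 to -0.14, none of them called. Fragment length was 448 ± 108 bases in PP females and 292 ± 52.1 bases in LL females (SD of 5 mice each), and with fragment length as a term the count of called genes was again 0.

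**Figure D2:**
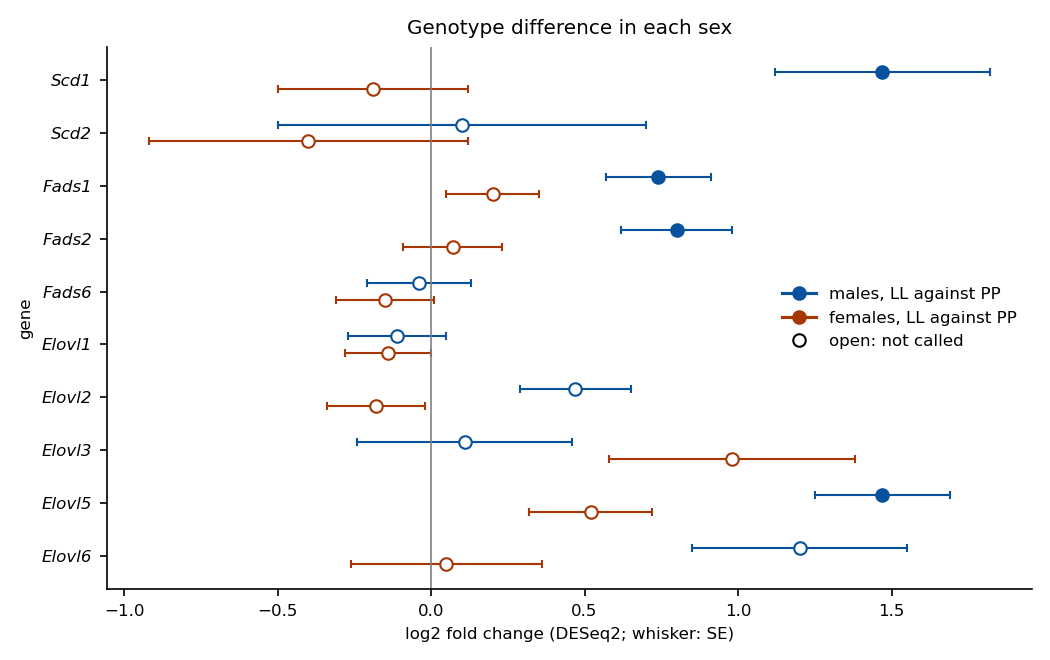
DESeq2 log2 change of LL against PP for each of the 10 genes, in males (blue) and females (brown), with the SE as whiskers; filled points are called and open points are not. In males Scd1 and Elovl5 stand at 1.47, Elovl6 at 1.20, Fads2 at 0.80 and Fads1 at 0.74, and no female point is filled.

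Whether the genotype difference itself differed between the sexes was tested with the interaction term. Scd1 was called, with a log2 difference (the LL against PP change in females minus that in males) of -1.66 ± 0.46 (SE, DESeq2 adjusted P = 0.0459), 1 of 10 genes against 0.119% of all genes tested. For the interaction DESeq2 gave an adjusted P to only 1606 of the 10938 genes, of which 13 were called. The values of Elovl5 (-0.96 ± 0.30, adjusted P = 0.0845), Fads2 (-0.73 ± 0.24, 0.115), Elovl2 (-0.65 ± 0.24, 0.253), Fads1 (-0.54 ± 0.22, 0.339) and Elovl6 (-1.15 ± 0.47, 0.339) were of the same sign and were not called. For these 5 genes an effect in males alone was therefore not shown.

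The Scd1 interaction was weakly held. It was called in 7 of 30 alternatives, with the adjusted P from 0.000195 to 0.584, and the log2 difference stayed between -2.56 and -1.46. It was lost by edgeR, by a term for age or fragment length, by another count filter, without independent filtering, with the transcript length offset, on log2(TPM + 1), and without any 1 library except male PP 3, female LL 3 and female LL 5. Elovl5 was called without female LL 2 (adjusted P = 0.049) or male LL 3 (0.0491), Fads2 without female LL 5 (0.0469) or male LL 3 (0.0491), and Elovl6 without female LL 3 (0.0113).

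The sexes were then compared within each genotype. In PP mice 7 of the 10 genes differed, 6 of them higher in females and Elovl3 lower, where 3.68% of all genes tested were called higher, 2.77% lower and 6.45% in all. The groups did not overlap for 6 of the 10, against 9.74% of all genes tested. This comparison and that of LL males with PP males use the same 4 PP males, so their values are not independent of each other and are given side by side only.

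The largest difference by sex was that of Elovl3 (ENSMUSG00000038754, chr19:46119917-46124133, plus strand). It had 171 to 306 normalized counts in the 4 PP males and 16, 0, 8.39, 6.34 and 10.4 in the 5 PP females. All females were far below all males, with a log2 change of -4.96 ± 0.39 (SE, DESeq2 adjusted P = 6.64e-34), a ratio of 0.0321. In LL mice the difference was -4.09 ± 0.37 (SE, adjusted P = 1.75e-25), with 161 to 420 counts in males and 6.17 to 26.4 in females.

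Elovl5 was higher in PP females than in PP males by 1.64 ± 0.21 on the log2 scale (SE, DESeq2 adjusted P = 1.06e-12), with 1623 to 2880 normalized counts in females and 564 to 918 in males. Elovl2 was higher by 0.88 ± 0.17 (adjusted P = 2.08e-05), with 2769 to 3477 counts in females and 1464 to 1974 in males. Fads1 was higher by 0.86 ± 0.16 (adjusted P = 3.23e-06) and Fads2 by 0.64 ± 0.17 (adjusted P = 0.00382). None of these 4 genes of polyunsaturated fatty acid synthesis overlapped between the sexes in PP mice, and each was called in all 31 alternatives.

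For the saturated and monounsaturated branch, Elovl6 was higher in PP females by 1.29 ± 0.33 (SE, DESeq2 adjusted P = 0.00322), with an overlap of 1 female at 314 counts and 1 male at 345. Scd1 was higher by 1.23 ± 0.33 (adjusted P = 0.00452) without overlap, 23256 to 40040 counts in females against 9810 to 18859 in males. The call of Scd1 was lost without female PP 4 (adjusted P = 0.0651) or male PP 1 (0.114), 2 (0.111) or 4 (0.0718). The mean Scd1 count was 12786 in PP males, 35514 in LL males and 30063 in PP females.

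Fads6, Elovl1 and Scd2 were not called between PP females and PP males, with log2 changes of -0.16 ± 0.16, -0.06 ± 0.15 and 0.25 ± 0.55 (SE). On log2(TPM + 1) Fads6 and Elovl1 turned to 0.66 (limma adjusted P = 0.0172) and 0.61 (0.0225) higher in females. On that scale the median of all genes tested was 0.50 higher in PP females, and the Mup genes took 25.7% ± 3.77 (SD, n = 4) of counts in PP males against 3.80% ± 1.96 (SD, n = 5) in PP females.

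In LL mice only Elovl3, lower in females, and Elovl5, higher in females, were called by sex, 2 of 10 genes where 6.12% of all genes tested were called, 3.33% higher and 2.79% lower. The groups did not overlap for 1 of the 10, against 8.16% of all genes tested. Elovl5 had 2289 to 3973 normalized counts in LL females and 1564 to 2589 in LL males, overlapping in part, with a log2 change of 0.68 ± 0.21 (SE, DESeq2 adjusted P = 0.0217). Its call was lost by edgeR (0.0712), with fragment length as a term (0.0631), and without female LL 1 (0.0696) or 2 (0.078) or male LL 2 (0.0908), 3 (0.0884) or 4 (0.068). Scd1 was at -0.43 ± 0.33 (adjusted P = 0.499) and was called lower in females, at -0.86 (0.0269), without female LL 3, while Fads1 (0.49, 0.0156) and Elovl2 (0.46, 0.0306) were called higher without male LL 4. The log2 changes by sex in LL mice were 0.32 ± 0.16 for Fads1, -0.09 ± 0.17 for Fads2, 0.23 ± 0.17 for Elovl2 and 0.14 ± 0.33 for Elovl6 (SE), none of them called.

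**Figure D3:**
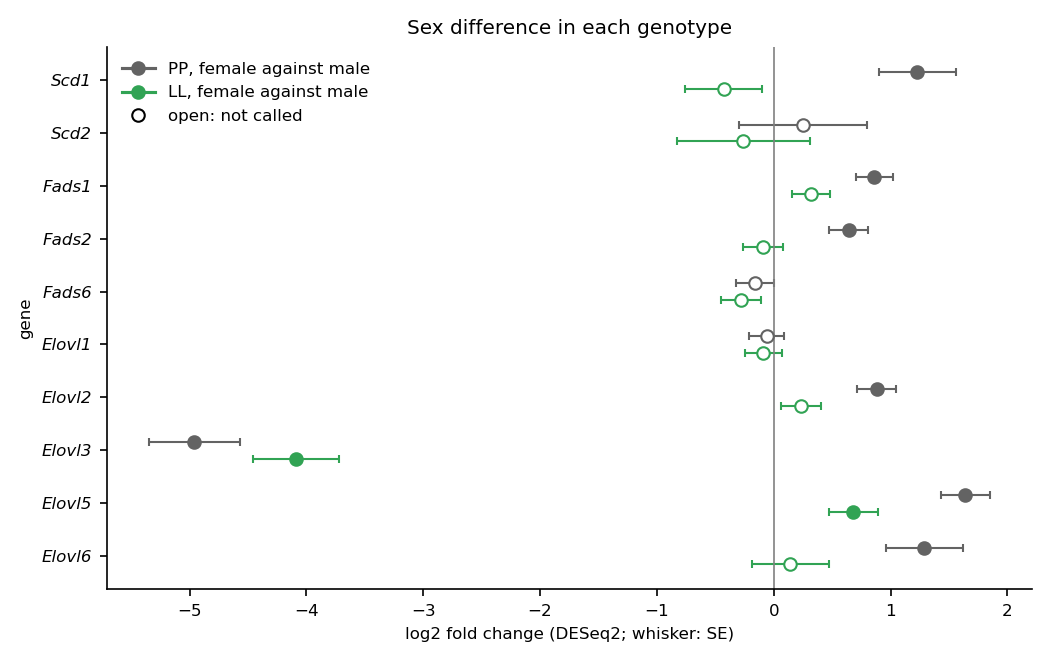
DESeq2 log2 change of female against male mice for each of the 10 genes, in PP mice (grey) and LL mice (green), with the SE as whiskers; filled points are called and open points are not. Elovl3 stands at -4.96 in PP and -4.09 in LL mice, and Elovl5 is the only other gene filled in both genotypes, at 1.64 and 0.68.

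Markers of other cells also differed by sex in PP mice. The stellate cell markers Reln (1.24 ± 0.28, DESeq2 adjusted P = 0.000334), Dcn (0.93 ± 0.24, 0.00287) and Lrat (1.04 ± 0.35, 0.049, called in 17 of 31 alternatives) and the endothelial Kdr (1.17 ± 0.30, 0.00274) were higher in PP females than in PP males, and so was the hepatocyte marker Alb (0.94 ± 0.10, 2.22e-17), all as log2 changes ± SE. Alb was the only 1 of the 5 hepatocyte markers that was called, and 3 of the 5 had log2 changes above 0. Serpina1a (-0.41 ± 0.12, adjusted P = 0.0117, short of the fold limit) and Cyp2e1 (-0.49 ± 0.19, 0.108) were lower in PP females without overlap of the groups. Apoa1 was at 0.01 ± 0.23. The Kupffer cell marker Vsig4 was higher in LL females than in LL males (0.85 ± 0.25, 0.016), the only 1 of the 4 Kupffer cell markers called there. Its call was lost with the length offset (adjusted P = 0.0795) and a replicate block (0.0519). It was also lost without female LL 1 (0.0556), male LL 1 (0.0536) or male LL 2 (0.0553). No marker was called by genotype in either sex with DESeq2 or edgeR, while Alb was called for the interaction (-0.61 ± 0.14, 0.018; 19 of 30 alternatives). By genotype in males all 4 Kupffer cell markers had log2 changes below 0, with 3 at an unadjusted P below 0.05. Vsig4, 1 of these 3, was at -0.92 ± 0.26 without overlap of the groups, and it was not called because DESeq2 gave it no adjusted P. Alb was at 0.37 ± 0.11 in males (adjusted P = 0.0523). In females the 4 Kupffer cell markers also had log2 changes below 0, with 2 at an unadjusted P below 0.05, and summed to 724 to 911 normalized counts in PP and 439 to 707 in LL mice. The 4 endothelial markers were below 0 too in LL females, with 3 at an unadjusted P below 0.05. Both red blood cell markers, Hba-a1 (1.44 ± 0.50) and Hbb-bs (1.08 ± 0.52), were above 0, with 2 at an unadjusted P below 0.05. The part of these differences in the results above was not tested.

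The estimates were then split by transcript. Scd1-201, Fads2-201, Fads6-201, Elovl5-201 and Elovl6-201 each held at least 99.1% of the counts of their gene over all libraries, and Scd2-201 held all of them. A second transcript held more than 10% for Fads1, Elovl1, Elovl2 and Elovl3. Fads1-202 held 72.8% and Fads1-201 26.8%, Elovl2-202 held 73.4% and Elovl2-201 26.6%, Elovl3-201 held 77.3% and Elovl3-202 22.7%, and Elovl1-202 held 43.9% and Elovl1-203 39.1%.

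In percentage points, the transcript shares of Fads1 and Elovl2 differed most between genotypes, although no such difference passed after adjustment. The share of Elovl2-202 was 85.0%, 75.5%, 89.9% and 91.9% in PP males and 66.7%, 56.3%, 76.6% and 65.5% in LL males, a difference of -19.3 percentage points (exact permutation p = 0.0571, adjusted 0.254). In females it was 79.8% ± 8.94 in PP and 60.1% ± 17.9 in LL mice (SD of 5 mice each, exact permutation p = 0.0635, adjusted 0.254). The 2 Elovl2 transcripts share their end and differ in their start.

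For Fads1 the order was the opposite, with a larger share on the leading transcript in LL mice. Fads1-202 held 61.0% ± 14.2 in PP females and 83.0% ± 9.35 in LL females (SD of 5 mice each, exact permutation p = 0.0159, adjusted 0.254), and 71.4% ± 13.7 in PP males and 82.7% ± 10.6 in LL males (SD of 4 mice each, exact permutation p = 0.2, adjusted 0.533). Of 16 tests of this kind 0 passed an adjusted P of 0.05 and 2 had an unadjusted p below 0.05, by counts as by TPM. Fads2-201 in females was the other, with 100% ± 0.0216 in LL against 98.5% ± 3.29 in PP mice (SD of 5 mice each, exact permutation p = 0.0476). Salmon divides reads among transcripts that share most of their sequence and uses the fragment length to do so. Fragment length was lower in LL females than in PP females, and its part in these shares was not tested.

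**Figure D4:**
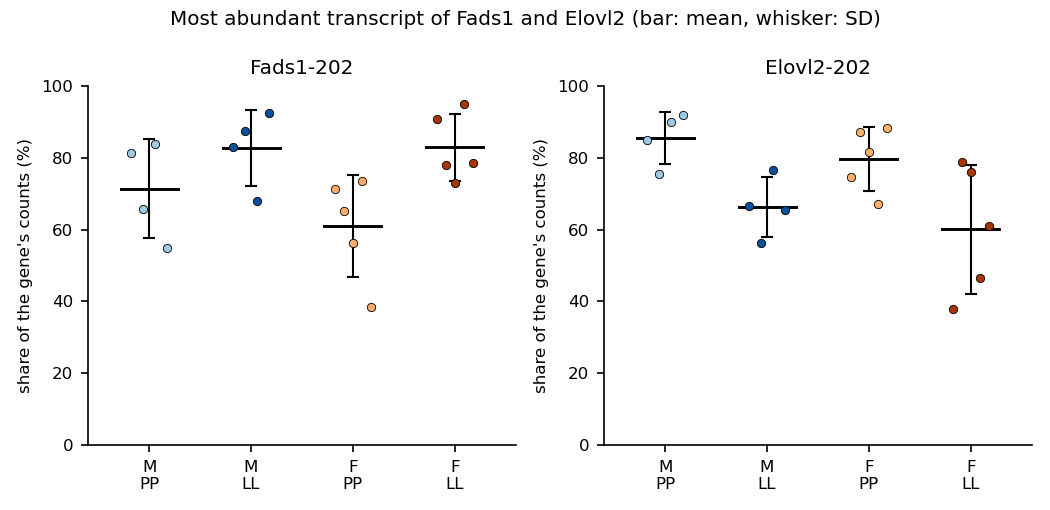
Share of the estimated counts of Fads1 on Fads1-202 and of Elovl2 on Elovl2-202 in each mouse, as a percent on an axis from 0 to 100, with the mean as a bar and the SD as a whisker. For Elovl2 the PP males lie between 75.5% and 91.9% and the LL males between 56.3% and 76.6%, with 1 mouse of each group inside the range of the other.

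Sequence shared with other genes was small for most of the family. In words of 31 bases, Scd1 shared 5.65% with Scd3, Elovl6 5.53% with Gm11295, Fads2 0.709% with Fads3, and Elovl3 19.4% with Pitx3, which overlaps its end on the opposite strand. Scd3 had at most 0.906 normalized counts in any mouse, and Pitx3 and Gm11295 had 0, while Fads3 had 27.6 to 126. The strandedness of the libraries is not given in the sources used here.

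Mice of the same group differed among themselves, and the members that varied together were found from deviations of log2(normalized count + 1) from the group means over 18 mice. Fads1 and Fads2, which are neighbours on chromosome 19, had the highest correlation of the 45 pairs, with r = 0.86 (permutation p = 0.00086, adjusted 0.0272) and rho = 0.86 (permutation p = 0.00085, adjusted 0.0191). Without the 2 mice farthest from the median r was 0.79, and on log2(TPM + 1) it was 0.57. Fads2 and Fads6 had r = 0.73 (permutation p = 0.00121, adjusted 0.0272) and rho = 0.76 (permutation p = 0.00045, adjusted 0.0191), with r = 0.69 without the 2 farthest mice, but r = 0.17 where the group means were not subtracted.

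For Scd1 and Elovl6, r was 0.78 (permutation p = 0.00342, adjusted 0.0513) and rho 0.63 (permutation p = 0.0156, adjusted 0.117), neither of which passed after adjustment, and r was 0.59 without the 2 farthest mice. With Elovl5, Scd1 had r = 0.60 (permutation p = 0.0182, adjusted 0.136) and rho = 0.78 (permutation p = 0.00139, adjusted 0.0208). Scd1 and Fads2, both called higher in LL males, had r = 0.09. Of the 45 pairs 7 had an unadjusted p below 0.05 and 2 an adjusted P below 0.05 by r. All pairs share the libraries and their scaling.

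**Figure D5:**
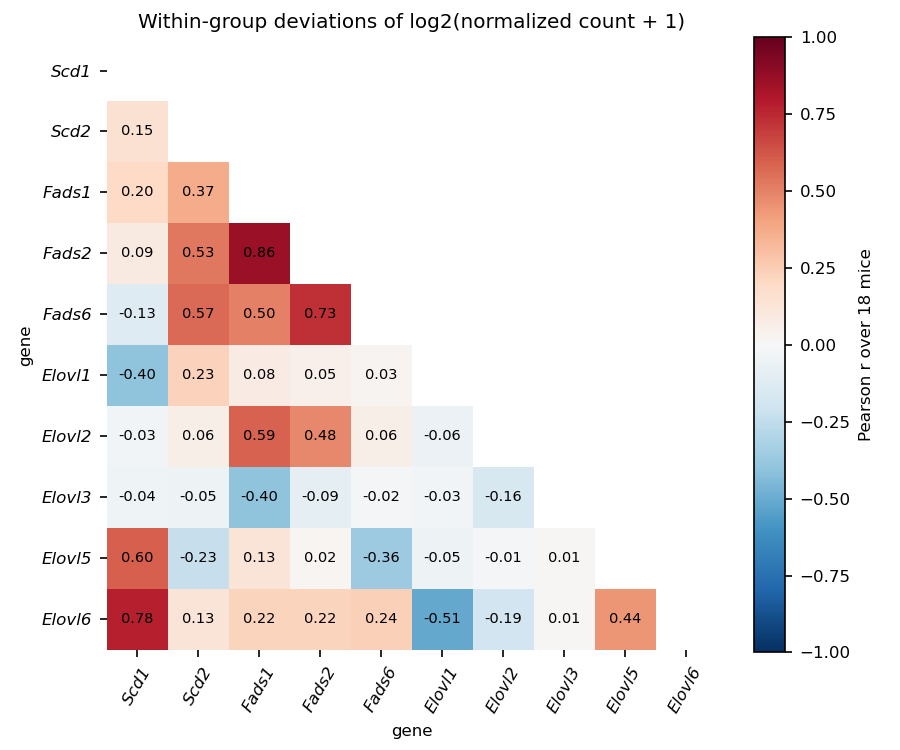
Pearson r for each of the 45 pairs of the 10 genes over 18 mice, computed on deviations of log2(normalized count + 1) from the group means, from blue (negative) to red (positive). The highest values are those of Fads1 with Fads2 (0.86), Scd1 with Elovl6 (0.78) and Fads2 with Fads6 (0.73), of which the first and the last had an adjusted P below 0.05.

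By the same measure, the genes outside the family with the pattern most like Scd1, among 5636 genes with a mean of at least 50 normalized counts, were Acsl5, Isoc1 and Cdc123 (r = 0.80 each). Acsl5 encodes an acyl-CoA synthetase that activates long-chain fatty acids. Among the nearest genes were Rpf1 (r = 0.81) and U2af1 (0.80) for Elovl5, Hgd (0.88), Clcc1 (0.79) and Cyp17a1 (0.78) for Fads1, and Abhd2 (0.82), Ttc39b (0.78) and Ogdh (0.75) for Fads2. They were Atad1 (0.85), Enpep (0.81) and Mtif2 (0.80) for Elovl6, Bcl6 (0.82), Tubb5 (0.78) and Rhou (0.76) for Elovl2, and Susd4 (0.84), Stmp1 (0.79) and Ido2 (0.79) for Elovl3. These are descriptions of 18 mice picked from many genes, and no test was made of them.

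Genes that work with the desaturases and elongases were read from fixed lists. Of the 8 partners of the elongation cycle and electron donors (Hsd17b12, Hacd1, Hacd2, Hacd3, Tecr, Cyb5a, Cyb5b and Cyb5r3), 0 were called in either genotype contrast or by sex with DESeq2 or edgeR, and from 0 to 3 had an unadjusted P below 0.05 by DESeq2. Cyb5a had a log2 change of 0.40 ± 0.12 in LL against PP females (SE, DESeq2 adjusted P = 0.0633). It was called there in 8 of 31 alternatives. Of the other desaturase and elongase genes, Fads3 and Degs1 were the only ones of 7 that were tested, and neither was called.

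The list for malonyl-CoA and palmitate supply (Acly, Acaca, Acacb, Fasn, Me1, Acss2 and Slc25a1) had 1 of 7 called higher in LL males, 0 in LL females, and 6 of 7 higher in PP females than in PP males. Of all genes tested 0.21%, 0.366% and 3.68% were called higher in these contrasts, in that order. In males the called gene was Me1, malic enzyme, a source of NADPH, with 519 ± 105 normalized counts in PP and 1050 ± 366 in LL mice (SD of 4 mice each) and a log2 change of 1.02 ± 0.29 (SE, DESeq2 adjusted P = 0.047). The call of Me1 was lost in 15 of 31 alternatives, with adjusted P up to 0.493, among them leaving out any of female PP 2, the 4 PP males and male LL 1, 2 and 3 (0.0633 to 0.341). The median log2 change of the list in males was 0.48. By sex in PP mice the call of Me1 (0.82 ± 0.27, DESeq2 adjusted P = 0.0389) was lost in 11 of 31 alternatives, with adjusted P up to 0.169. There the call of Acly was lost with the length offset (0.384) and that of Acss2 without male PP 2 (0.0503). Fasn, the fatty acid synthase, was higher in females by 1.88 ± 0.20 in PP (adjusted P = 1.38e-17) and 1.24 ± 0.20 in LL mice (2.01e-07), and had 336 ± 66.0 counts in PP males and 467 ± 115 in LL males, which was not called. By edgeR 0 genes of this list were called by genotype in males, with 4 at an unadjusted P below 0.05, and 5 by sex in PP mice. For the female genotype contrast edgeR also called 0, and 2 had an unadjusted P below 0.05 by DESeq2.

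Among 13 regulators tested, 0 were called by genotype in males or females with DESeq2 or edgeR, with 2 in males and 4 in females at an unadjusted P below 0.05 by DESeq2. Srebf1, which encodes SREBP-1, had a log2 change of -0.01 ± 0.37 and Mlxipl, which encodes ChREBP, of -0.48 ± 0.19 in LL males (SE, adjusted P = 0.997 and 0.275). Insig2, which retains SREBP in the endoplasmic reticulum, was higher in PP females than in PP males (0.69 ± 0.24, adjusted P = 0.049). This call was lost in 15 of 31 alternatives, with adjusted P up to 0.25, among them edgeR (0.104), age as a term (0.119) and leaving out any of female PP 1, 2, 3 and 5, male PP 1, 2 and 4, female LL 2 and male LL 1, 2 and 3 (0.053 to 0.206). By sex in PP mice Insig2 was the only 1 of the 13 called by DESeq2, where 6.45% of all genes tested were called. By edgeR 0 of the 13 were called there, with 2 at an unadjusted P below 0.05.

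Of 9 genes of peroxisomal chain shortening, which completes docosahexaenoate synthesis, Abcd2 and Ehhadh were called higher in LL males. Of all genes tested, 0.21% were called higher in that contrast. Abcd2, a transporter of very long-chain acyl-CoA into peroxisomes, had 2.82 to 20.8 normalized counts in PP males, 19.2 to 82.9 in LL males, 200 to 229 in PP females and 137 to 227 in LL females. Its log2 change was 1.95 ± 0.38 by genotype in males (SE, DESeq2 adjusted P = 0.000397) and 4.11 ± 0.36 by sex in PP mice (1.53e-27). Ehhadh, a bifunctional enzyme of the peroxisome, was higher in LL males by 0.84 ± 0.24 (0.0458), a call lost in 13 of 31 alternatives, with adjusted P up to 0.431, among them leaving out any of female PP 2, male PP 1, 2 and 4 and male LL 1 and 2 (0.113 to 0.431). The male call of Abcd2 was lost in 3 of the 21 alternatives that gave it an adjusted P, namely edgeR (0.184), the length offset (0.135) and log2(TPM + 1) (0.407). Scp2, a peroxisomal thiolase and sterol carrier, was lower in females, by -0.87 ± 0.12 in PP (DESeq2 adjusted P = 4.6e-11) and -0.97 ± 0.12 in LL mice (1.32e-13). Both calls were lost on log2(TPM + 1), at 0.07 in PP (limma adjusted P = 0.816) and -0.86 in LL mice (0.0569). By edgeR 0 of the 9 were called by genotype in males, with 4 at an unadjusted P below 0.05.

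Of 7 tested genes for activation and placement of unsaturated fatty acids, Acsl5 alone was called by genotype, in males. There 0.21% of all genes tested were called higher. Acsl5 had 1135 to 1256 normalized counts in PP males and 1784 to 2111 in LL males, without overlap. Its log2 change was 0.64 ± 0.17 (SE, DESeq2 adjusted P = 0.024). The call was lost in 10 of 31 alternatives, with adjusted P up to 0.831: by edgeR, which called 0 of the 7 in this contrast with 1 at an unadjusted P below 0.05, with the length offset, on log2(TPM + 1), and without female PP 2, male PP 1, 2 or 4, or male LL 1, 2 or 4 (0.0514 to 0.23). Acsl5 was also higher in PP females than in PP males (0.71 ± 0.16, 0.000296), with 1890 to 2054 counts in PP females. This call held in 30 of 31 alternatives and was lost with the length offset, where the log2 change was 0.16 (adjusted P = 0.904). Acsl4, which prefers arachidonate, was lower in LL females than in LL males (-0.62 ± 0.17, 0.00586). Its call was lost with fragment length as a term (adjusted P = 0.0814), with the length offset (0.211), on log2(TPM + 1) (0.65) and without male LL 4 (0.061).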

How the data were processed

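Liver RNA of 18 mice had been extracted with Trizol, purified on columns and sequenced at 1 library per mouse. According to the submitters' processing notes, reads were checked with FastQC and assigned by the authors with Salmon 1.4.0 to GENCODE mouse transcripts (release M26, build GRCm39). The library layout and strandedness are not given in the sources used here. Each file deposited by the authors lists 139225 transcripts with an estimated count, not scaled between libraries, and a TPM value scaled by the authors' Salmon run to the same total in every library.

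Transcripts were joined to genes by GENCODE M39, which held 137570 of them. The other 1655 were left out, which kept 99.76% or more of each library's estimated counts. Estimated counts were summed over each of 52230 genes and rounded. Genes with 10 or more counts in 4 or more libraries, 10938 in all, entered DESeq2 1.42.0 (R 4.3.3), the tool named in the methods of the study. All 18 libraries in 1 fit, median-of-ratios size factors, the Wald test and Benjamini-Hochberg adjustment were chosen here. A gene was called, with the limits of those methods, at an adjusted P below 0.05 where its fold change reached 1.3 upwards or 0.7 downwards, and without a fold limit for the interaction. An adjusted P that DESeq2 left empty stayed empty. A normalized count is the summed count divided by the size factor. Replicate numbers are those of the labels, and P measures the spread between mice.

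Two-sided exact permutation tests were run on shares of transcripts, for members with 2 or more transcripts and at least 20 counts in every library of a sex. Correlations were tested with 100000 permutations of mice within groups. Promoter windows of 250 bases were read from GRCm39 at the M39 starts, and those of Scd1, Fads1 and Fads2 are given. Named are all 10 members, up to 4 list genes called per list and contrast, and the 3 genes most like a called member, of which 1 is not reported here. Srebf1, Mlxipl, Cyb5a and the genes sharing sequence with a member were named after their values were seen. Alternatives were edgeR 4.0.16, limma 3.58.1 on log2(TPM + 1), other scaling, filters and terms, and leaving out each library. DESeq2 and edgeR were also run on simulated counts with known changes in male LL mice only. That run did not cover the sex contrasts or the interaction. The members and lists were chosen with earlier results of these data known. A total of 3794671 to 6613905 counts per library leaves a wide counting error for genes at a few counts, such as Scd2.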

Additional observations from a re-analysis of the deposited data

Results flagged for a closer look

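The genotype difference of Scd1 was called as different between the sexes, with a log2 value of -1.66 (female minus male, DESeq2 adjusted P = 0.0459). That call held in only 7 of 30 alternatives, with adjusted P up to 0.584. Over 40 groups of 4 or 5 mice examined for a single distant value, 3 had one, and chance alone gives about 5% of groups. Elovl6 had 1373 normalized counts in female LL 3, against 341 to 612 in the other 4 mice of that group. Fads6 had 413 normalized counts in female PP 5, against 280 to 310 in the other 4 mice. Elovl1 had 120 normalized counts in male LL 3, against 97.1 to 98.5 in the other 3 mice.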

How the results depend on the processing

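In males 4 genes were called LL against PP, and edgeR called 1, where it called 3 of all 10938 genes tested; leaving out single libraries gave 2 to 5, with 2 without male PP 1. By sex in LL mice 2 were called, and edgeR and a term for fragment length gave 1 each and log2(TPM + 1) gave 4, with 1 to 3 when single libraries were left out. In females 0 were called, with 0 to 1 when single libraries were left out (1 without female PP 4). For the interaction 1 gene was called, and edgeR, no count filter, a filter of 50 counts, no independent filtering, the length offset, a term for fragment length or age and log2(TPM + 1) each gave 0, with 0 to 2 when single libraries were left out. On log2(TPM + 1) Fads6 (0.66) and Elovl1 (0.61) turned from lower to higher in female PP against male PP mice, as the median of all genes rose by 0.50. Of 45 pairs 2 correlated at an adjusted P below 0.05, 15 without subtracting group means, 1 on log2(TPM + 1) and 5 without the 2 farthest mice. Of 1535 single values, 194 could not be set against the threshold, since DESeq2 gave no adjusted P in the alternative (99) or in the reported fit alone (95). Of the other 1341, 1267 kept their side, 47 lost and 25 gained a call, 2 reversed, and 37 changed sign while called in neither setting. The cause was not tested in any of these. Same-numbered mice of a sex had correlations of deviations from -0.169 to 0.159, which cannot decide whether the numbers pair them. Within each group the numbers follow the order of age, so a block by number is in part a block by age. A replicate block gave 5 genes in males, 0 in females, 7 and 2 by sex and 1 for the interaction. Counts of Scd2 and of Elovl3 in females are too low to show small differences.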
